A study of Homo sapiens and Mus musculus with 55 samples.

Results

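The 33 genes described here encode parts of the lysosome, the acidic compartment in which cells break down proteins, glycans, lipids and engulfed material. They were taken by symbol: TFEB, TFE3, LAMP1, LAMP2, CD63, SCARB2, NPC1, MCOLN1, TPP1, CTSA, CTSB, CTSD, CTSF, CTSL, CTSZ, GAA, GLA, GLB1, GUSB, HEXA, NAGLU, NEU1, SGSH, ARSA, ARSB, ASAH1, MAN2B1, NPC2, PSAP, ATP6AP1, ATP6V0D1, ATP6V1H and SQSTM1. All 33 were found in each of the 10 deposited tables, among 24465 to 36036 gene rows per table, as title-case orthologs in the 2 mouse tables. All 33 passed the filter on low values (a table mean of at least 10) in 9 tables, and 32 passed in 4T1, where Ctsf had a value of at most 1.08 in any library. RNA sequencing covered 55 libraries of 4 breast cancer cell lines, the human triple-negative lines MDA-MB-436 and SUM159PT and the mouse mammary tumour lines 4T1 and Py230, in a study whose title concerns repression of STING by MYC and the response to immune checkpoint inhibitors.

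Untreated parental cells and untreated cells labelled Tax-R had 2 libraries each in both human lines. Tax-R cells of both lines received control siRNA, MYC siRNA-1 or MYC siRNA-2, with 2 libraries per group, and 4T1 cells received the same 3 kinds of siRNA, with 3 libraries per group. Mock cells and STING sgRNA cells, the latter in groups labelled C1 and C2, had 2 libraries per group in both human lines. In the open reading frame (ORF) tables every library carried a STING sgRNA, and 2 libraries per line had a GFP ORF and 2 a STING ORF. The Py230 libraries, 3 with vehicle and 3 with doxycycline, all came from cells with a Sting1 shRNA, and no library had doxycycline without the shRNA. The labels do not say what C1 and C2 stand for, how long any treatment lasted, or whether the replicates of a group were separate cultures.

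Lysosome genes are transcribed in part under TFEB and TFE3, related transcription factors that move into the nucleus when nutrients are scarce or the lysosome is stressed and that bind a short palindrome in the promoters of their targets. MYC and its partner MAX bind the same CACGTG core. The products form a membrane lined with LAMP1 and LAMP2, a proton pump that acidifies the lumen, and a set of hydrolases, most of which reach the lysosome by mannose 6-phosphate tags. SQSTM1 (p62) carries cargo to autophagosomes, which fuse with lysosomes. STING, which signals the presence of cytosolic DNA, is itself degraded in lysosomes.

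Values are normalized counts as deposited, and changes are log2 fold changes of (value + 1) ± SE. Genes called higher or lower passed limma's test at a Benjamini-Hochberg adjusted p below 0.05 over all genes of their table. Recovered depth was 5663610 to 13191675 reads per library, of which the 33 genes held 0.269 to 1.03%. The share split by table. It was 0.269 to 0.284% in the tables of Tax-R against parental cells and at least 0.411% in every other library. Tax-R cells given control siRNA were at 0.65 and 0.652% in MDA-MB-436 and 0.703 and 0.726% in SUM159PT. In bulk RNA, fewer cells of a kind and less RNA per cell cannot be told apart. As checks on the labels, MYC fell by 0.87 in SUM159PT given MYC siRNA but only by 0.09 in MDA-MB-436, and its change of -0.09 in 4T1 was not called (limma adjusted p = 0.0683 for MYC), so in these lines the siRNA groups are called by their labels only. STING1 (listed as TMEM173) fell with STING sgRNA in both lines and with doxycycline in Py230, and rose with the STING ORF. It was also called higher with MYC siRNA-1 and MYC siRNA-2, each against control siRNA. The changes were 1.82 and 2.18 in MDA-MB-436, 0.92 and 0.92 in SUM159PT, and 0.40 and 0.39 in 4T1. CDH1 was at 5848 to 6489 in 4T1 and 4266 to 5141 in Py230, where the epithelial marker KRT19 was at 0 to 4.74 and the mesenchymal markers CDH2 and FN1 at 3687 to 4098 and 37496 to 60229. In the human lines CDH1 was at 0 to 8.67, KRT8 at 1270 to 8508 and KRT18 at 640.3 to 3061. VIM was at 1096 to 1568 in the tables of Tax-R against parental cells and at 9736 to 20244 in the other human tables, which were normalized separately and include Tax-R cells given control siRNA. Among 8 markers of macrophages and other leukocytes, which are rich in lysosomes, PTPRC (CD45) was present in 3 of the 4 MDA-MB-436 tables (242.2 to 2113) and in SUM159PT parental cells (518.4 and 548.2), and GPNMB in both human lines (176.9 to 1724).

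To show the CACGTG core in these genes, 30-base stretches of promoters with it are printed below, with the core in capitals. Promoter windows of 300 bases (250 before to 50 after the RefSeq start, GRCh38.p14) were available for 24 of the 33 genes. ARSA, HEXA, SGSH, LAMP2, PSAP, ATP6V1H, CTSB, NAGLU and ASAH1 had none in the table used.
LAMP1: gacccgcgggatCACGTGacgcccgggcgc
CD63: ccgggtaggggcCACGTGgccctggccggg
MCOLN1: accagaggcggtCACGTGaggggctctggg
CTSA: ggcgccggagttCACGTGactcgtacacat
CTSD: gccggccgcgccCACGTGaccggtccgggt
CTSF: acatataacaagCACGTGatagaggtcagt
GAA: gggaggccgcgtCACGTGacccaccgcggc
NEU1: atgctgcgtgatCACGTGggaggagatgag
ARSB: taattcaataagCACGTGactaaaggattt
ATP6V0D1: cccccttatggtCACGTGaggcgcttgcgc

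These stretches lie in the promoters of LAMP1 (chr13:113297199-113297228, plus strand, core 28 bases before the start), CD63 (chr12:55729172-55729201, minus strand, core 180 bases before the start) and MCOLN1 (chr19:7522571-7522600, plus strand, core 41 bases before the start). Those of cathepsin genes belong to CTSA (chr20:45891298-45891327, plus strand, core 25 bases before the start), CTSD (chr11:1763957-1763986, minus strand, core 47 bases before the start) and CTSF (chr11:66568712-66568741, minus strand, core 123 bases before the start). The others belong to GAA (chr17:80101493-80101522, plus strand, core 76 bases before the start), NEU1 (chr6:31862930-31862959, minus strand, core 126 bases before the start), ARSB (chr5:78986101-78986130, minus strand, core 160 bases before the start) and ATP6V0D1 (chr16:67481199-67481228, minus strand, core 59 bases before the start). CACGTG, which reads the same on both strands, was in 10 of the 37 windows of the 24 genes, each from a different gene. Of all 35116 windows, 7.26% had CACGTG. LAMP1 had 6 copies of it, the most of any of these genes, and MCOLN1, CTSA, CTSF and GAA had 2 each. The longer palindrome TCACGTGA, which contains CACGTG, was in 5 of the 37 windows (LAMP1, MCOLN1, CTSA, GAA and ATP6V0D1) and in 0.98% of all windows. A match describes the letters only, and the files hold no measure of binding.

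**Figure D1:**
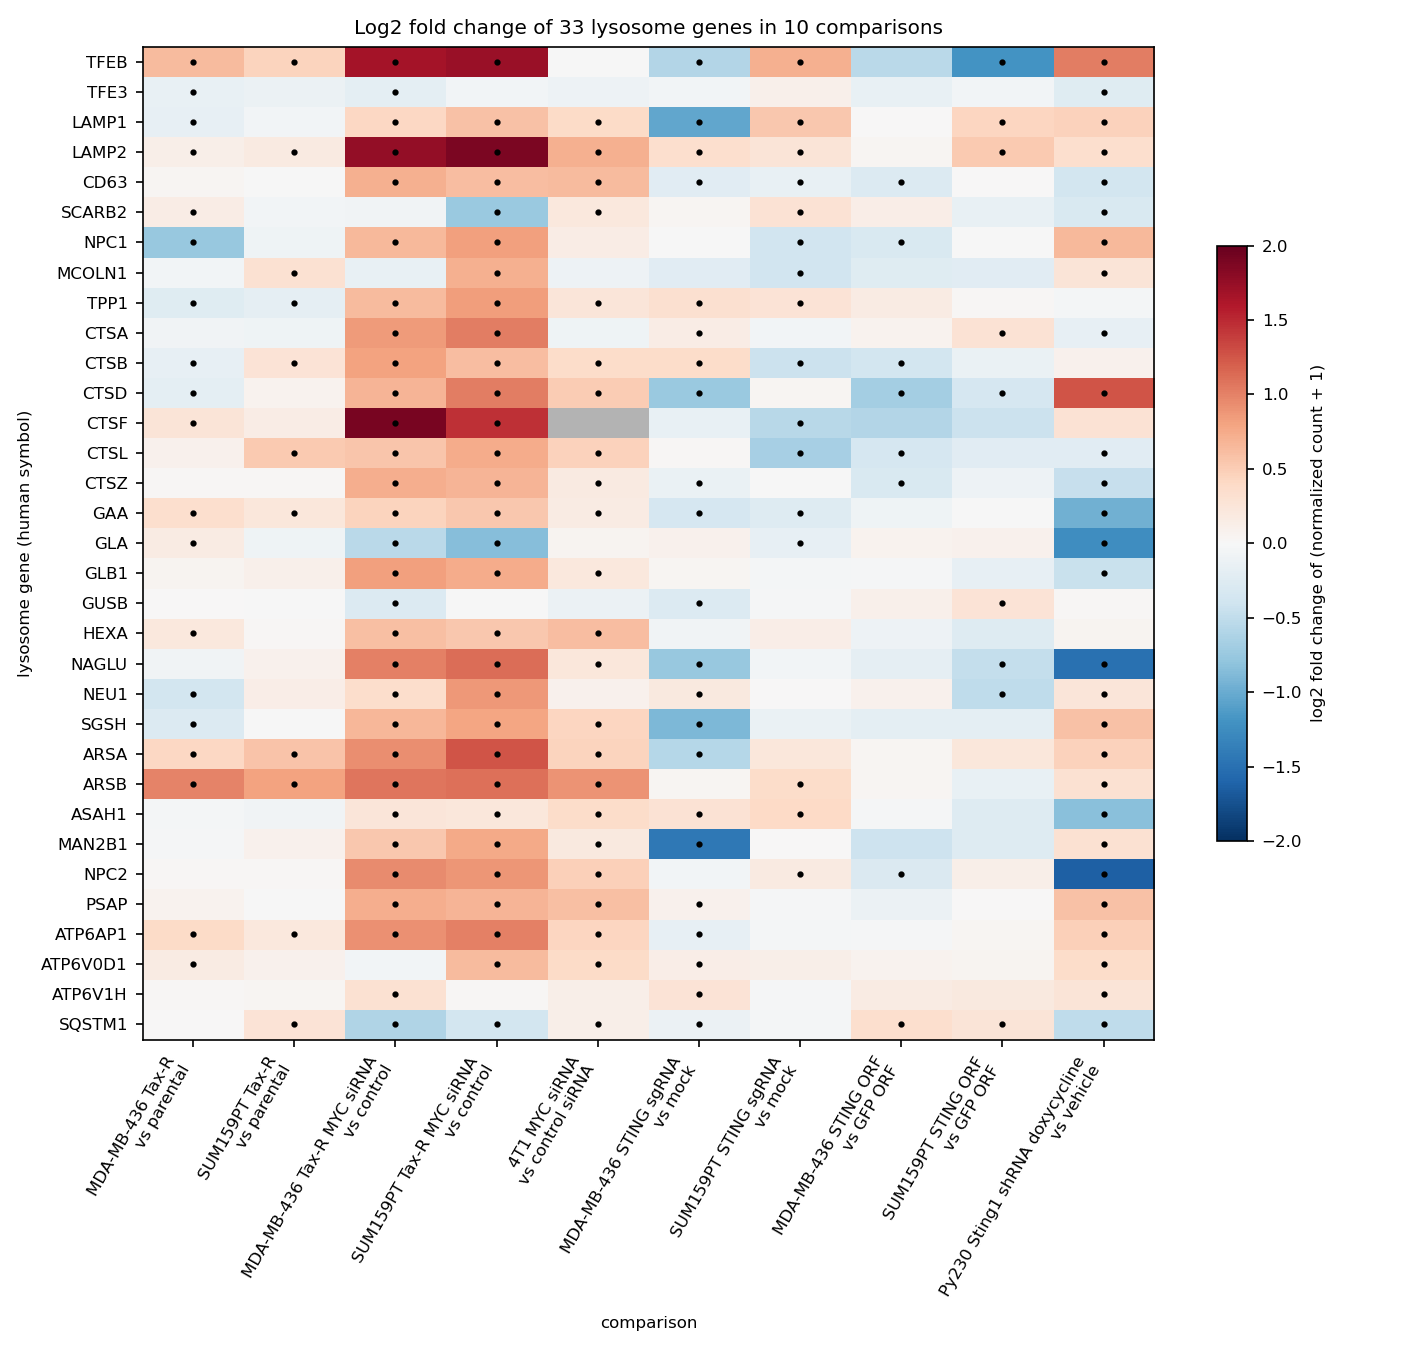
Log2 fold change of each of the 33 lysosome genes (rows) in the 10 comparisons (columns), from blue (lower) to red (higher), with a dot where limma's adjusted p was below 0.05 and grey for Ctsf in 4T1, below the filter. The 3 MYC siRNA columns are mostly red, with 26, 27 and 23 genes called higher, and the other columns hold both colours.

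The MYC siRNA comparisons ask how the genes respond when MYC is targeted. In Tax-R cells of MDA-MB-436, 26 of 33 lysosome genes were higher with MYC siRNA and 4 were lower, where 34% of all tested genes were higher and 33.7% lower. For SUM159PT Tax-R cells the counts were 27 higher and 3 lower (35% and 34.5% of all genes), and in 4T1, 23 of 32 were higher and none lower (24.7% and 21.5%). The median change of the lysosome genes was 0.64, 0.74 and 0.23, beside medians of -0.01, -0.01 and 0.00 over all tested genes. In 4T1, 1 gene was lower by limma at an unadjusted p below 0.05, and the count of lower genes was 0 by DESeq2, 1 by edgeR, 2 after quantile normalization and 1 without control replicate 3. The lysosome genes held 0.65 and 0.652% of reads in the MDA-MB-436 control libraries and 0.814 to 0.845% with MYC siRNA. The shares were 0.703 and 0.726% against 1.01 to 1.03% in SUM159PT, and 0.411 to 0.43% against 0.499 to 0.53% in 4T1, so in each line every library labelled MYC siRNA lay above every control.

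Across the 3 lines, 20 of 32 lysosome genes were higher in all and none was lower in all, where 12.7% and 11.7% of the 9243 genes tested in all 3 tables were. In both human lines 25 of 33 were higher, and GLA and SQSTM1 were lower (26.9% and 26.9% of all genes). The 20 genes higher in all 3 lines were LAMP1, LAMP2, CD63, TPP1, CTSB, CTSD, CTSL, CTSZ, GAA, GLB1, HEXA, NAGLU, SGSH, ARSA, ARSB, ASAH1, MAN2B1, NPC2, PSAP and ATP6AP1. The 4T1 call of GAA was lost after quantile normalization, by DESeq2, with siMYC1 alone and without any of 4 single libraries, that of NAGLU by DESeq2, and that of GAA in SUM159PT after a correction for transcript GC content. For each of the 20 the perturbed libraries lay above all controls in all 3 lines, as they did for 35.9% of all tested genes in MDA-MB-436, 36.8% in SUM159PT and 21.6% in 4T1, each line taken alone. The 20 were picked by their calls, which favour such separation, so it is no further evidence. TFEB, NPC1, CTSA and NEU1 were higher in both human lines and not called in 4T1, and CTSF was not tested there. The difference between lines was not tested.

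Among the membrane proteins, LAMP2, a main component of the lysosomal membrane with a role in chaperone-mediated autophagy, changed most. In MDA-MB-436 its levels were 612.5 and 730.1 with control siRNA, 2237 and 2285 with MYC siRNA-1, and 2302 and 2279 with MYC siRNA-2 (1.77 ± 0.05, limma adjusted p = 5.54e-23). In SUM159PT they were 625.0 and 662.2 with control siRNA, 2359 and 2448 with MYC siRNA-1, and 2287 and 2362 with MYC siRNA-2 (1.88 ± 0.04, limma adjusted p = 4.73e-36). In 4T1 LAMP2 was at 1041, 957.8 and 1102 with control siRNA, 1829, 1668 and 1757 with MYC siRNA-1, and 1628, 1648 and 1667 with MYC siRNA-2 (0.72 ± 0.05, limma adjusted p = 2.7e-12). Every MYC siRNA library stood above every control in each line.

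LAMP1, the other main membrane glycoprotein, rose less (0.41 ± 0.02 in MDA-MB-436, 0.59 ± 0.03 in SUM159PT and 0.38 ± 0.04 in 4T1). CD63, a tetraspanin of late endosomes and lysosomes, rose by 0.72 ± 0.03, 0.62 ± 0.04 and 0.64 ± 0.05 in the same order. In 4T1 CD63 was at 1718, 1494 and 1667 with control siRNA, 2489, 2563 and 2607 with MYC siRNA-1, and 2387, 2516 and 2590.1 with MYC siRNA-2 (limma adjusted p = 1.42e-11), with no overlap. NPC1, which exports cholesterol from the lysosome, was higher in both human lines (0.64 ± 0.04 and 0.82 ± 0.05), and its change of 0.15 ± 0.07 in 4T1 was not called. MCOLN1, a calcium channel, was called higher in SUM159PT (0.71 ± 0.10). SCARB2, which carries the enzyme glucocerebrosidase to the lysosome, was the only membrane protein gene called lower. In SUM159PT it was at 1885 and 1982 with control siRNA, 1089.8 and 1188 with MYC siRNA-1, and 1156 and 1168 with MYC siRNA-2 (-0.75 ± 0.05, limma adjusted p = 2.18e-19). It was called higher in 4T1 (0.21 ± 0.05) and not called in MDA-MB-436 (-0.07 ± 0.04).

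All 7 proteases were higher in both human lines, and 5 of the 6 tested were higher in 4T1. CTSD, the main aspartic protease of lysosomes, was at 1566 and 1544 with control siRNA, 2688 and 2573 with MYC siRNA-1, and 2405 and 2324 with MYC siRNA-2 in MDA-MB-436 (0.68 ± 0.03, limma adjusted p = 5.95e-17). In SUM159PT CTSD was at 2526 and 2379.9 with control siRNA, 5005 and 4833 with MYC siRNA-1, and 4987 and 5174 with MYC siRNA-2 (1.03 ± 0.04, limma adjusted p = 3.41e-29), and in 4T1 at 743.4, 722.9 and 714.9 with control siRNA, 1014, 1022 and 1060.4 with MYC siRNA-1, and 997.1, 1045 and 1049.6 with MYC siRNA-2 (0.50 ± 0.04, limma adjusted p = 9.67e-10). The groups did not overlap in any of the lines. CTSF, a cysteine cathepsin, had the largest change of the 33 genes in MDA-MB-436, with values of 27.7 and 19.4 with control siRNA, 109.4 and 87.3 with MYC siRNA-1, and 82.5 and 80.4 with MYC siRNA-2 (1.90 ± 0.17, limma adjusted p = 5.69e-11). Its SUM159PT values were 80.8 and 68.3 with control siRNA, 204.8 and 198.6 with MYC siRNA-1, and 197.8 and 224.6 with MYC siRNA-2 (1.46 ± 0.11, limma adjusted p = 7.65e-17). CTSF rested on low values in MDA-MB-436, and its ortholog was near 0 in 4T1. The cysteine proteases CTSB, CTSL and CTSZ rose by 0.56 to 0.81 in MDA-MB-436, by 0.62 to 0.74 in SUM159PT and by 0.18 to 0.46 in 4T1. TPP1, a tripeptidyl peptidase, rose by 0.63 ± 0.05, 0.83 ± 0.04 and 0.24 ± 0.06. CTSA, a carboxypeptidase that also stabilizes GLB1 and NEU1, rose in the human lines (0.85 ± 0.04 and 1.03 ± 0.04) and was at -0.09 ± 0.06 in 4T1, not called.

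Of the 12 enzymes that act on glycans, glycosaminoglycans and lipids, 10 were higher and 2 lower in MDA-MB-436, 10 higher and 1 lower in SUM159PT, and 9 higher and none lower in 4T1. ARSB, which removes sulfate from dermatan and chondroitin sulfate, was at 213.0 and 218.4 with control siRNA, 446.3 and 458.3 with MYC siRNA-1, and 445.7 and 468.7 with MYC siRNA-2 in MDA-MB-436 (1.07 ± 0.06, limma adjusted p = 1.33e-14). In SUM159PT ARSB was at 230.8 and 209.0 with control siRNA, 481.7 and 471.8 with MYC siRNA-1, and 506.3 and 438.4 with MYC siRNA-2 (1.11 ± 0.07, limma adjusted p = 1.93e-18), and in 4T1 at 193.0, 194.5 and 184.9 with control siRNA, 381.6, 348.4 and 330.6 with MYC siRNA-1, and 369.4, 364.0 and 354.5 with MYC siRNA-2 (0.90 ± 0.07, limma adjusted p = 2.33e-11). It had the largest change of the 32 genes tested in 4T1. ARSA, which desulfates sulfatide, was at 286.5 and 299.0 with control siRNA, 729.3 and 699.5 with MYC siRNA-1, and 673.4 and 704.4 with MYC siRNA-2 in SUM159PT (1.26 ± 0.06, limma adjusted p = 2.08e-23), and it also rose in MDA-MB-436 (0.94 ± 0.07) and 4T1 (0.45 ± 0.06). HEXA, the alpha subunit of beta-hexosaminidase, was at 30.5, 27.5 and 32 with control siRNA, 46.2, 42 and 51 with MYC siRNA-1, and 47.5, 45.2 and 48.8 with MYC siRNA-2 in 4T1 (0.62 ± 0.15, limma adjusted p = 0.00148). NAGLU and SGSH, both of heparan sulfate breakdown, rose by 1.02 ± 0.07 and 0.66 ± 0.06 in MDA-MB-436, 1.11 ± 0.07 and 0.79 ± 0.05 in SUM159PT, and 0.23 ± 0.07 and 0.43 ± 0.08 in 4T1. GAA, the glycogen-degrading alpha-glucosidase, GLB1, a beta-galactosidase, MAN2B1, an alpha-mannosidase, and ASAH1, the acid ceramidase, were higher in all 3 lines, by 0.16 to 0.82.

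GLA, the alpha-galactosidase that is deficient in Fabry disease, fell in both human lines. Its levels were 828.7 and 873.7 with control siRNA, 584.0 and 564.6 with MYC siRNA-1, and 595.6 and 591.4 with MYC siRNA-2 in MDA-MB-436 (-0.54 ± 0.05, limma adjusted p = 1.23e-10) and 547.1 and 540.1 with control siRNA, 264.4 and 318.8 with MYC siRNA-1, and 299.3 and 322.1 with MYC siRNA-2 in SUM159PT (-0.85 ± 0.07, limma adjusted p = 2.64e-14). In 4T1 GLA was at 116.7, 106.7 and 97.1 with control siRNA, 96, 112.2 and 130.9 with MYC siRNA-1, and 119.3, 105.5 and 101.6 with MYC siRNA-2 (0.05 ± 0.11, limma adjusted p = 0.741), with overlapping groups. GUSB, a beta-glucuronidase, was lower in MDA-MB-436 alone by the test, at 419.7 and 413.6 with control siRNA, 389.6 and 341.6 with MYC siRNA-1, and 335.7 and 317.4 with MYC siRNA-2 (-0.27 ± 0.07, limma adjusted p = 0.000799).

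The soluble lipid-binding proteins rose in all 3 lines. NPC2, which hands cholesterol to NPC1, was at 649.8 and 682.5 with control siRNA, 1305 and 1291 with MYC siRNA-1, and 1246 and 1272 with MYC siRNA-2 in MDA-MB-436 (0.94 ± 0.04, limma adjusted p = 1.27e-17), and it rose by 0.88 ± 0.04 in SUM159PT and 0.48 ± 0.05 in 4T1. PSAP, the precursor of the saposins that present lipids to hydrolases, was at 3256, 3065 and 3009 with control siRNA, 4726, 4804 and 4875 with MYC siRNA-1, and 4502, 4739 and 4615 with MYC siRNA-2 in 4T1 (0.60 ± 0.04, limma adjusted p = 2.36e-12). It rose by 0.73 ± 0.02 in MDA-MB-436 and by 0.68 ± 0.03 in SUM159PT. Of the proton pump genes, the accessory subunit ATP6AP1 rose in all 3 lines (0.92 ± 0.03, 1.0 ± 0.04 and 0.43 ± 0.05). The membrane-sector subunit ATP6V0D1 was called higher in SUM159PT and 4T1 (0.64 ± 0.05 and 0.38 ± 0.08), and the soluble-sector subunit ATP6V1H in MDA-MB-436 (0.31 ± 0.05).

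The transcription factors did not move together. TFEB was at 21.3 and 34 with control siRNA, 89.8 and 87.3 with MYC siRNA-1, and 80.6 and 92 with MYC siRNA-2 in MDA-MB-436 (1.66 ± 0.17, limma adjusted p = 1.14e-09) and at 50.0 and 43.5 with control siRNA, 154.6 and 173.1 with MYC siRNA-1, and 150.7 and 150.7 with MYC siRNA-2 in SUM159PT (1.73 ± 0.12, limma adjusted p = 2.87e-17). In 4T1 TFEB was at 66.4, 74 and 63 with control siRNA, 62, 73.9 and 71 with MYC siRNA-1, and 72.6, 68.9 and 55.8 with MYC siRNA-2 (-0.01 ± 0.13, limma adjusted p = 0.944), with overlapping groups. TFE3 was at 1009 and 1044 with control siRNA, 837.9 and 892.0 with MYC siRNA-1, and 902.9 and 964.9 with MYC siRNA-2 in MDA-MB-436 (-0.19 ± 0.05, limma adjusted p = 0.000478), and its changes of -0.06 ± 0.06 in SUM159PT and -0.10 ± 0.06 in 4T1 were not called. SQSTM1 fell in both human lines. It was at 12807 and 12642 with control siRNA, 8348 and 8217 with MYC siRNA-1, and 8520.2 and 8518 with MYC siRNA-2 in MDA-MB-436 (-0.60 ± 0.02, limma adjusted p = 3.25e-21) and at 8795 and 8317 with control siRNA, 6844 and 6580.0 with MYC siRNA-1, and 6523 and 6635 with MYC siRNA-2 in SUM159PT (-0.36 ± 0.03, limma adjusted p = 3.37e-14). In 4T1 SQSTM1 was at 3514, 3738 and 3429 with control siRNA, 3913, 3723 and 4009.9 with MYC siRNA-1, and 3563, 3964 and 3903 with MYC siRNA-2 with overlapping groups (0.11 ± 0.04, limma adjusted p = 0.0358), a call lost with no filter, with quantile or TMM normalization, by edgeR and DESeq2, with the replicate block, with siMYC2 alone and without any of 5 single libraries.

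**Figure D2:**
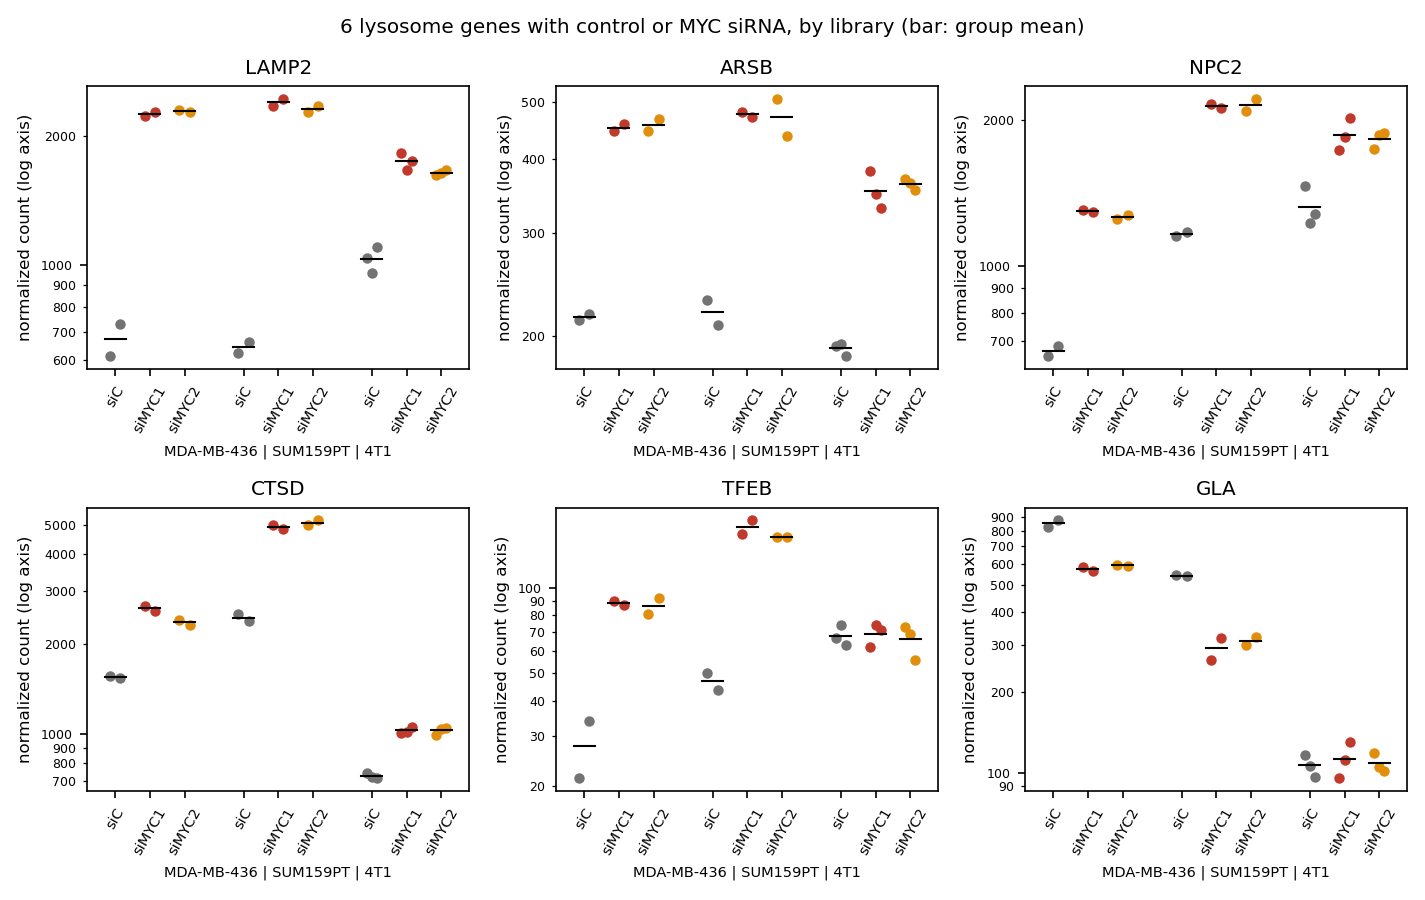
Normalized counts (log axis) of 6 lysosome genes in every library with control siRNA (grey), MYC siRNA-1 (red) or MYC siRNA-2 (orange), for MDA-MB-436, SUM159PT and 4T1 from left to right, with bars at group means. LAMP2, ARSB, NPC2 and CTSD are above controls in all 3 lines, TFEB in the human lines, and GLA is below controls in the human lines.

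Of the genes with CACGTG in their promoter window, 8 of 10 were higher and none lower in MDA-MB-436 (median 0.57), and of those without it 9 of 14 were higher and 4 lower (median 0.6). In SUM159PT, 10 of 10 with CACGTG were higher (median 0.79), and of 14 without it 9 were higher and 3 lower (median 0.74). In 4T1, by the human windows, the counts were 6 of 9 (median 0.38) and 9 of 14 (median 0.19). Of all tested genes, 34%, 35% and 24.7% were higher in these 3 tables. Among the 10 comparisons the medians lay furthest apart in Py230 with doxycycline, where no MYC siRNA was given. There, by the human windows, 6 of 10 with CACGTG were higher and 3 lower (median 0.27). Of 14 without it, 4 were higher and 8 lower (median -0.23). The difference between the promoter classes was not tested.

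Other lysosomal genes, not among the 33, were fixed in lists by function, and their counts differed by list. Of all tested genes, 34%, 35% and 24.7% were higher and 33.7%, 34.5% and 21.5% lower in MDA-MB-436, SUM159PT and 4T1. Of 27 other acid hydrolases tested, 21 were higher and 4 lower in MDA-MB-436 (median 0.92), and 20 were higher and 3 lower in SUM159PT (median 0.53). In 4T1, 16 of 25 were higher and 2 lower (median 0.21). SMPD1, the acid sphingomyelinase, rose by 1.95 ± 0.06 in MDA-MB-436, 1.70 ± 0.05 in SUM159PT and 0.29 ± 0.10 in 4T1. GALNS, of keratan sulfate breakdown, rose by 1.75 ± 0.08, 1.53 ± 0.07 and 0.25 ± 0.06 in the same order. CTSC, a dipeptidyl peptidase, was called lower in each line (-0.66 ± 0.04, -0.53 ± 0.05 and -0.24 ± 0.06).

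Of the other proton pump subunits, 4 of 12 were higher and 3 lower in MDA-MB-436, 7 of 13 higher and 4 lower in SUM159PT, and 10 of 13 higher and none lower in 4T1. ATP6V1A, the catalytic subunit, fell in the human lines (-1.64 ± 0.07 and -2.12 ± 0.09) and rose in 4T1 (0.17 ± 0.05). Other lysosomal membrane proteins and channels were higher for 5, 6 and 5 and lower for 4, 6 and 2 of 14, 14 and 16 tested. Autophagy genes were higher for 8, 7 and 4 and lower for 2, 9 and 3 of 20, 20 and 19. ULK1, the kinase that starts autophagy, rose in the human lines (2.24 ± 0.06 and 1.59 ± 0.05), and RB1CC1, a scaffold of the same complex, fell (-1.53 ± 0.08 and -1.79 ± 0.09). Mannose 6-phosphate sorting genes were higher for 6, 7 and 4 and lower for 3, 2 and 3 of 12, 11 and 12, with the receptor M6PR lower in both human lines (-0.56 ± 0.03 and -0.73 ± 0.05). Genes of nutrient signalling at the lysosome were higher for 6, 5 and 6 and lower for 5, 4 and 2 of 14, 14 and 13. Several of these counts were near the shares of all genes. The membrane list in MDA-MB-436 was 35.7% higher and 28.6% lower, beside 34% and 33.7%. The nutrient list in SUM159PT was 35.7% higher and 28.6% lower, beside 35% and 34.5%. Among the lists, the hydrolases thus had the highest share of genes called higher in the human lines, which was not tested against the others.

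MYC siRNA-1 and MYC siRNA-2 did not differ by limma for any of the lysosome genes in the 3 lines (5, 0 and 1 genes at an unadjusted p below 0.05 in MDA-MB-436, SUM159PT and 4T1). In MDA-MB-436, edgeR called 2 of them different. Over all genes, 0.0779% and 0.117% were higher or lower with the second siRNA in MDA-MB-436, and 0% in the other 2 tables. The summed level of the 8 leukocyte markers moved with the siRNA in the human lines, from 394.1 to 409.7 with control siRNA to 888.7 to 992.4 with MYC siRNA in MDA-MB-436, and from 253.8 to 290.8 to 944.6 to 1002 in SUM159PT. Only 2 of the 8 were tested in each human line. GPNMB was called higher (1.37 ± 0.05 and 2.25 ± 0.06) and CSF1R lower. Over all libraries GPNMB was at 336.6 to 950.1 in MDA-MB-436 and 176.9 to 945.5 in SUM159PT, so it made up most of these sums. CSF1R was at 10.4 to 37.3 and 13.3 to 61.0. PTPRC stayed at 0 to 5.86 in MDA-MB-436 and 1.92 to 11.3 in SUM159PT. In 4T1 the sums overlapped (539.6 to 597.9 with control siRNA, 535.4 to 619.0 with MYC siRNA), and PTPRC was at 0 to 4.44. Summed mesenchymal markers were higher with MYC siRNA, from 23281 to 23699 to 31642 to 33550 in MDA-MB-436, from 28537 to 28593 to 44234 to 45288 in SUM159PT and from 18254 to 18769 to 36635 to 40957 in 4T1. Summed epithelial markers were higher too, from 17670 to 18885 to 22304 to 23656 in 4T1, with 4 of 5 called higher. The part of these markers in the results was not tested. Transcript GC content, correlated with the changes over all genes (Spearman 0.228 in MDA-MB-436 and 0.339 in SUM159PT), was corrected for as an alternative chosen after seeing the data. The counts became 26 higher and 6 lower in MDA-MB-436 and 26 and 5 in SUM159PT, and GAA lost its call in SUM159PT. The medians became 0.51 in both lines, from 0.64 in MDA-MB-436 and 0.74 in SUM159PT.

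The comparison of Tax-R with parental cells asks how the genes differ in the derived cells. In MDA-MB-436, 11 of 33 lysosome genes were higher and 8 lower, near the shares of all genes (27.7% and 26.9%), with a median of 0.02 beside 0.01 over all genes. In SUM159PT, 10 were higher and 1 lower (23.5% and 22.1% of all genes), with a median of 0.08 beside 0.01. Higher in both lines were TFEB, LAMP2, GAA, ARSA, ARSB and ATP6AP1, or 6 of 33 (13% of all genes), and TPP1 alone was lower in both (12.6% of all genes). ARSA and ARSB held their calls in both lines under every alternative other than a 1.5-fold threshold. DESeq2 called none of the other 4, nor TPP1, in SUM159PT. TFEB there was also lost without any 1 of its 4 libraries, and GAA after GC correction. In MDA-MB-436 the LAMP2 call was lost after quantile normalization, by DESeq2 and without any of 3 single libraries, and that of TFEB without either parental library. The STING1 level fell from parental to Tax-R cells in both lines (-1.03 ± 0.07 and -1.71 ± 0.08), and MYC was not called in either (-0.07 ± 0.04 and 0.11 ± 0.06).

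The sulfatase ARSB had the largest rise of the 33 genes in both lines. ARSB was at 381.8 and 373.8 in parental libraries and 746.7 and 763.3 in Tax-R libraries in MDA-MB-436 (1.0 ± 0.05, limma adjusted p = 1.92e-08) and at 464.5 and 472.1 in parental libraries and 809.1 and 833.6 in Tax-R libraries in SUM159PT (0.81 ± 0.05, limma adjusted p = 1.04e-06). ARSA was at 265.1 and 255.3 in parental libraries and 351.3 and 339.6 in Tax-R libraries in MDA-MB-436 (0.41 ± 0.06, limma adjusted p = 0.0002) and at 200.2 and 200.3 in parental libraries and 286.4 and 309.9 in Tax-R libraries in SUM159PT (0.57 ± 0.08, limma adjusted p = 0.000279). Tax-R libraries lay above parental ones for both enzymes, although 39.7% and 37.9% of all genes had such non-overlapping groups with pairs of libraries. TFEB was at 82.7 and 85.7 in parental libraries and 116.1 and 148.8 in Tax-R libraries in MDA-MB-436 (0.64 ± 0.13, limma adjusted p = 0.00184) and at 90.5 and 91.7 in parental libraries and 123.8 and 123.8 in Tax-R libraries in SUM159PT (0.44 ± 0.12, limma adjusted p = 0.014). Its call did not hold without either parental library in MDA-MB-436 (limma adjusted p = 0.0627 and 0.056), nor with any 1 library left out in SUM159PT (0.0504 to 0.0637), nor by DESeq2 there (adjusted p = 0.239).

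The proton pump subunit ATP6AP1 was at 876.2 and 873.9 in parental libraries and 1127 and 1153 in Tax-R libraries in MDA-MB-436 (0.38 ± 0.04, limma adjusted p = 7.25e-06) and rose by 0.21 ± 0.04 in SUM159PT. GAA rose by 0.33 ± 0.05 and 0.22 ± 0.05, and LAMP2 by 0.11 ± 0.03 and 0.18 ± 0.04. CTSL was at 689.1 and 760.7 in parental libraries and 1033 and 1044 in Tax-R libraries in SUM159PT (0.52 ± 0.05, limma adjusted p = 4.01e-05) and not called in MDA-MB-436 (0.08 ± 0.04). CTSB moved in opposite directions, lower in MDA-MB-436 (-0.16 ± 0.03) and higher in SUM159PT (0.28 ± 0.04). The other genes called higher in a single line were SCARB2, GLA, ATP6V0D1, HEXA and CTSF in MDA-MB-436 (0.15 to 0.26), and SQSTM1 and MCOLN1 in SUM159PT (0.28 and 0.30).

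NPC1 had the largest fall in MDA-MB-436, at 2718 and 2707 in parental libraries and 1624 and 1590.3 in Tax-R libraries (-0.75 ± 0.03, limma adjusted p = 1.42e-08), and was not called in SUM159PT (-0.08 ± 0.04). The sialidase NEU1 was at 316.2 and 278.4 in parental libraries and 235.2 and 226.7 in Tax-R libraries (-0.36 ± 0.08, limma adjusted p = 0.00203) and SGSH at 885.6 and 851.7 in parental libraries and 734.7 and 706.9 in Tax-R libraries (-0.27 ± 0.04, limma adjusted p = 0.00029). Neither was called in SUM159PT. TPP1 was lower in both lines, at 1694 and 1663 in parental libraries and 1429 and 1409.7 in Tax-R libraries in MDA-MB-436 (-0.24 ± 0.03, limma adjusted p = 0.000135) and 1639 and 1747 in parental libraries and 1492 and 1484 in Tax-R libraries in SUM159PT (-0.19 ± 0.04, limma adjusted p = 0.00552, 0.0585 by DESeq2). CTSD, LAMP1, CTSB and TFE3 were lower by 0.15 to 0.20 in MDA-MB-436. The 2 MDA-MB-436 Tax-R libraries differed by less than sampling noise (chi-square of 0.85 per gene, with 1.02 to 2.93 in other pairs), though not over their 92 most abundant genes (8.94). Counted as 1 sample, they left 17 of the 19 calls, without LAMP2 and CTSF. Without Tax-R replicate 1 the lower genes in MDA-MB-436 were 5, and without parental replicate 1 those in SUM159PT were 3. The leukocyte marker sum fell in MDA-MB-436, from 3394 to 3568 in parental to 1411 to 1527 in Tax-R cells, with 4 of 8 markers lower. PTPRC was at 1982 and 2113 in parental libraries and 242.2 and 375.5 in Tax-R libraries. In SUM159PT the sums were 1363 to 1421 and 1194 to 1258, and PTPRC was at 518.4 and 548.2 in parental libraries and 6.14 and 3.96 in Tax-R libraries. Their part in these results was not tested.

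Cells with a STING sgRNA were compared with mock cells. No group had an sgRNA against another or no target, so loss of STING and carrying an sgRNA cannot be told apart. In MDA-MB-436, 9 of 33 lysosome genes were higher and 13 lower (24.8% and 23% of all genes), with a median of -0.06 beside 0.01 over all genes. In SUM159PT, 8 were higher and 8 lower (19.3% and 19.8%), with medians of -0.02 and 0.00. LAMP2, TPP1 and ASAH1 were higher in both lines (8.56% of all genes), and CD63 and GAA lower in both (9.94%), although the CD63 groups overlapped in SUM159PT. The calls of CD63 and GAA were lost in both lines after GC correction, and in SUM159PT with C1 alone (CD63 0.01, limma adjusted p = 0.875; GAA -0.14, limma adjusted p = 0.113). LAMP2 was lost in SUM159PT and ASAH1 in MDA-MB-436 after GC correction. STING1 fell by 1.85 ± 0.15 and by 1.28 ± 0.11. The changes followed transcript GC content more than in the siRNA tables: its Spearman correlation with the change was -0.549 over all genes and -0.592 over the 33 in MDA-MB-436, and -0.378 and -0.376 in SUM159PT, with genes of the same libraries as points. Corrected for GC, an alternative chosen after seeing the data, MDA-MB-436 had 12 higher and 5 lower and SUM159PT 13 and 4. So the balance of directions in both lines depended on that correction.

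The largest differences in MDA-MB-436 were falls. MAN2B1 was at 149.3 and 158.8 in mock libraries, 54.1 and 65.7 in C1, and 45 and 62.4 in C2 (-1.44 ± 0.15, limma adjusted p = 4.76e-09). LAMP1, the membrane glycoprotein, was at 8457 and 8562 in mock libraries, 4316 and 4240.0 in C1, and 4144 and 3893 in C2 (-1.04 ± 0.03, limma adjusted p = 1.88e-21). All sgRNA libraries lay well below both mock libraries for LAMP1 and MAN2B1. Both heparan sulfate enzymes fell. SGSH was at 517.2 and 530.7 in mock libraries, 296.7 and 316.1 in C1, and 266.0 and 248.7 in C2 (-0.90 ± 0.07, limma adjusted p = 1.5e-11) and NAGLU at 301.6 and 280.6 in mock libraries, 182.4 and 168.0 in C1, and 178.0 and 158.6 in C2 (-0.76 ± 0.09, limma adjusted p = 6.15e-08). These 4 genes and CTSD stayed lower after GC correction. CTSD was at 2334 and 2418 in mock libraries, 1720.0 and 1520.1 in C1, and 1332 and 1169.6 in C2 (-0.74 ± 0.05, limma adjusted p = 2.68e-13). It was the only one of the 33 that differed between C2 and C1, being lower in C2 (0.131% and 0.666% of all genes were higher or lower in C2), and that count was 2 without C1 replicate 2 or C2 replicate 1 and 0 without C2 replicate 2 or with no filter. After GC correction the lower calls of TFEB, CD63, GAA, GUSB, ARSA and ATP6AP1 were lost, and CTSZ, GAA, ATP6AP1 and SQSTM1 changed sign. CTSZ and SQSTM1 were then called higher.

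Among the genes higher in MDA-MB-436, CTSB was at 4048 and 4174 in mock libraries, 5426 and 5291 in C1, and 5336 and 5108 in C2 (0.36 ± 0.03, limma adjusted p = 7.3e-11). LAMP2 was at 1259.9 and 1341 in mock libraries, 1663 and 1574 in C1, and 1672 and 1656 in C2 (0.34 ± 0.04, limma adjusted p = 1.7e-07), and TPP1 at 1624 and 1696 in mock libraries, 2149 and 1986 in C1, and 2122 and 2047 in C2 (0.32 ± 0.04, limma adjusted p = 1.59e-07). ASAH1 was at 458.7 and 424.6 in mock libraries, 496.1 and 535.2 in C1, and 556.0 and 564.8 in C2 (0.28 ± 0.06, limma adjusted p = 0.000373, 0.0984 after GC correction). None of the rises reached 1.5-fold, whereas 6 of the falls did. PSAP, ATP6V0D1, CTSA, NEU1 and ATP6V1H were higher by 0.08 to 0.27.

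In SUM159PT, LAMP1, TFEB and CTSB were called in the other direction. LAMP1 was higher, at 4474 and 4512 in mock libraries, 6666 and 6635 in C1, and 6302 and 6389 in C2 (0.53 ± 0.03, limma adjusted p = 1.61e-18). TFEB was higher too, at 42 and 49.9 in mock libraries, 73.1 and 86 in C1, and 89.5 and 58.7 in C2 (0.72 ± 0.17, limma adjusted p = 0.000578, 0.0867 with no filter), where it was lower in MDA-MB-436 (-0.59 ± 0.21). CTSB was lower, at 978.5 and 978.1 in mock libraries, 770.6 and 753.7 in C1, and 706.8 and 689.9 in C2 (-0.42 ± 0.05, limma adjusted p = 5.56e-09). For LAMP1, TFEB and CTSB each line's sgRNA libraries all lay on opposite sides of their mock libraries, and the difference between lines was not tested.

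The ceramidase ASAH1 was at 360.5 and 338.8 in mock libraries, 434.6 and 465.4 in C1, and 458.8 and 476.8 in C2 in SUM159PT (0.39 ± 0.07, limma adjusted p = 5.42e-06) and the sulfatase ARSB at 188.8 and 196.8 in mock libraries, 240.1 and 249.5 in C1, and 241.8 and 260.5 in C2 (0.36 ± 0.08, limma adjusted p = 0.000627). LAMP2 rose by 0.25 ± 0.05 and TPP1 by 0.27 ± 0.05. SCARB2 rose by 0.30 ± 0.05. NPC2 changed by 0.18 ± 0.05, a call lost by DESeq2, with no filter, after GC correction, with C2 alone (limma adjusted p = 0.158) and without mock replicate 2. The cysteine cathepsins CTSL, CTSF and CTSB were lower, and CTSZ was not called. CTSL was at 247.0 and 215.0 in mock libraries, 152.8 and 159.3 in C1, and 161.5 and 114.3 in C2 (-0.66 ± 0.11, limma adjusted p = 3.93e-06, 0.0539 with no filter). CTSF was at 53.4 and 66.2 in mock libraries, 42.7 and 46.1 in C1, and 32.9 and 40.2 in C2 (-0.55 ± 0.18, limma adjusted p = 0.0145), a call lost by DESeq2 (adjusted p = 0.163), after GC correction (0.108), with no filter (0.0747), with C1 alone (0.167) and without mock replicate 2 (0.212). The cholesterol exporter NPC1 was at 831.6 and 825.5 in mock libraries, 632.0 and 639.5 in C1, and 611.1 and 650.8 in C2 (-0.39 ± 0.05, limma adjusted p = 1.55e-07). Without mock replicate 1 the count of lower genes was 5.

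C1 and C2 differed in SUM159PT for 9 of the 33 genes, where 8.53% of all genes were higher and 11.4% lower in C2 than in C1. CTSD was the clearest, at 1215 and 1095 in mock libraries, 1518 and 1447 in C1, and 977.3 and 913.4 in C2, so C1 lay above and C2 below the mock libraries. LAMP2 and SCARB2 were higher in C2 than in C1, and CD63, CTSD, CTSZ, GAA, SGSH, PSAP and SQSTM1 lower. The count was 3 to 5 with any 1 library of C1 or C2 left out, and 0 with no filter on low values. Leukocyte marker sums also differed from mock, at 2379 to 2445 in mock and 2863 to 3012 in sgRNA libraries of MDA-MB-436, and at 422.5 to 432.9 and 844.9 to 896.8 in SUM159PT. PTPRC was at 1015 to 1312 in MDA-MB-436 and 0 to 115.2 in SUM159PT. In SUM159PT GPNMB was called higher and PTPRC lower, and in MDA-MB-436 both were called higher. Their part in these results was not tested.

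**Figure D3:**
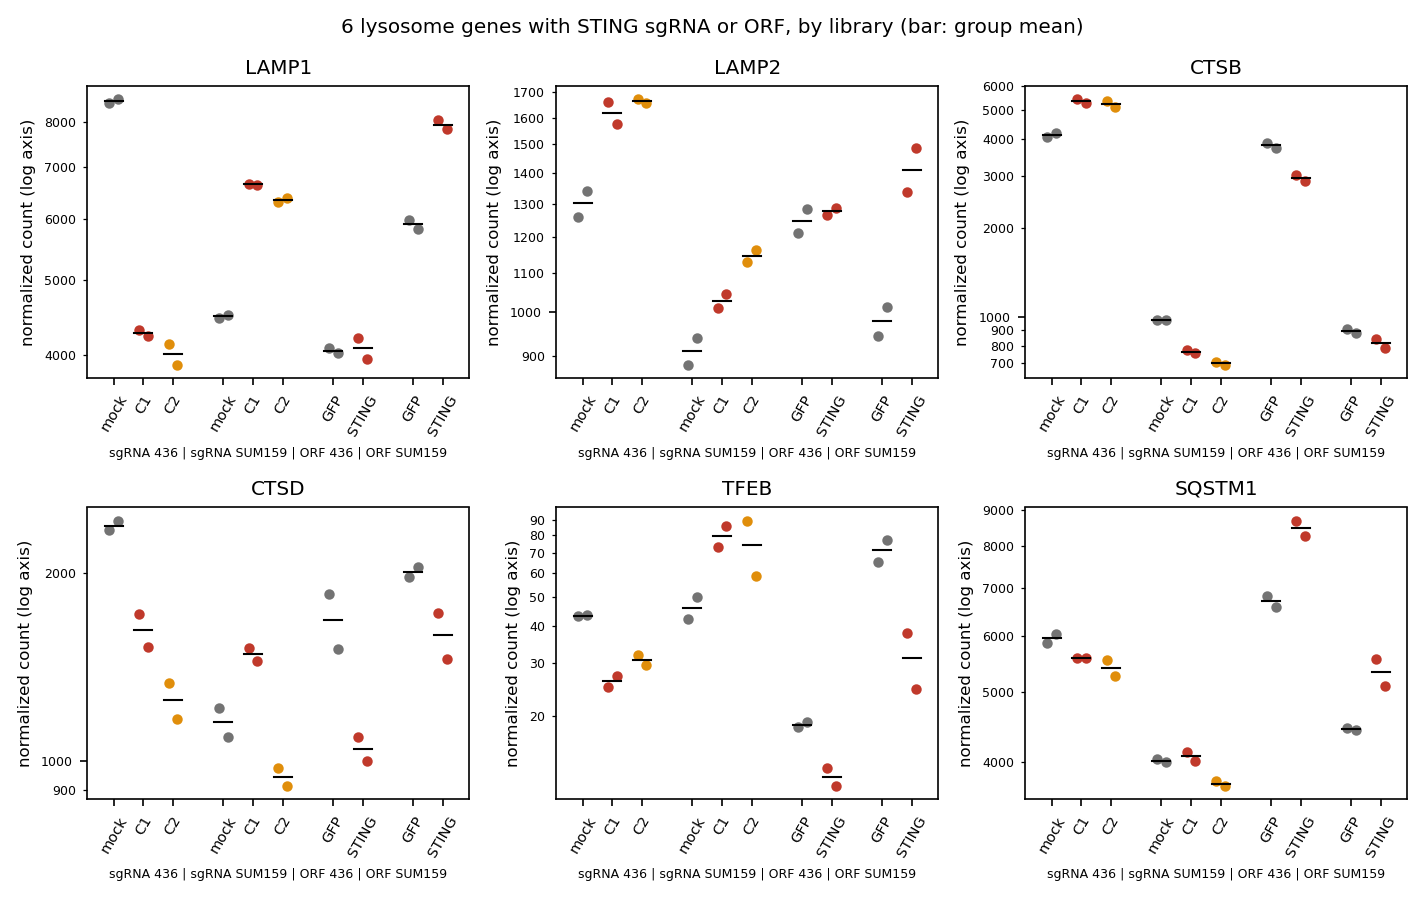
Normalized counts (log axis) of 6 lysosome genes in every library of the STING sgRNA tables (mock in grey, C1 in red, C2 in orange) and the STING ORF tables (GFP ORF in grey, STING ORF in red), with bars at group means and each table normalized on its own. LAMP1 is below mock in MDA-MB-436 and above it in SUM159PT, and SQSTM1 is above the GFP ORF with the STING ORF in both lines.

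Cells with a STING sgRNA that were given a STING ORF were compared with those given a GFP ORF, to see what the STING ORF changes. Of 33 lysosome genes, 8 were called in MDA-MB-436 and 9 in SUM159PT, where 21.1% and 26% of all genes were. In MDA-MB-436, 1 of 33 was higher and 7 lower (9.2% and 11.9% of all genes), with a median of -0.09. In SUM159PT, 5 were higher and 4 lower (13.2% and 12.8%), with a median of -0.06. STING1 rose by 4.47 ± 0.16 and 4.37 ± 0.12. SQSTM1 was the only gene higher in both lines (3.15% of all genes) and CTSD the only gene lower in both (4.34%).

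SQSTM1, the autophagy receptor, was at 6829 and 6577 with the GFP ORF and 8690.4 and 8268 with the STING ORF in MDA-MB-436 (0.34 ± 0.07, limma adjusted p = 0.000306) and at 4461 and 4426 with the GFP ORF and 5572 and 5099 with the STING ORF in SUM159PT (0.26 ± 0.06, limma adjusted p = 0.0015). CTSD was at 1847 and 1511 with the GFP ORF and 1096 and 1000.3 with the STING ORF in MDA-MB-436 (-0.67 ± 0.08, limma adjusted p = 3.17e-07) and at 1970.5 and 2039 with the GFP ORF and 1723 and 1456 with the STING ORF in SUM159PT (-0.34 ± 0.08, limma adjusted p = 0.00176). The CTSD call in SUM159PT was lost after GC correction (adjusted p = 0.0609), with no filter (0.0973), and without either GFP library (0.0596 and 0.106). The SQSTM1 call was lost with no filter in both lines, and in SUM159PT also after quantile normalization and without either GFP library.

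The other falls in MDA-MB-436 included proteases and cholesterol transporters. CTSB was at 3851 and 3729 with the GFP ORF and 3021 and 2884 with the STING ORF (-0.36 ± 0.07, limma adjusted p = 0.00023), CTSL at 897.7 and 829.8 with the GFP ORF and 642.9 and 732.0 with the STING ORF (-0.33 ± 0.09, limma adjusted p = 0.00543), and NPC1 at 2049 and 2155 with the GFP ORF and 1722 and 1669 with the STING ORF (-0.31 ± 0.07, limma adjusted p = 0.00201). The call of CTSL was lost by DESeq2 (adjusted p = 0.0556), with no filter (0.115) and without STING ORF replicate 1 (0.155). That of NPC1 was lost with no filter (0.0685) and without STING ORF replicate 2 (0.0752). CTSZ, NPC2 and CD63 were called lower by 0.28 to 0.30, calls lost with no filter and without either STING ORF library. DESeq2 did not call CTSZ and NPC2, and CTSZ and CD63 were lost after GC correction and without GFP replicate 1. Without either STING ORF library the lower genes in MDA-MB-436 were 3.

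In SUM159PT both LAMP proteins of the membrane had higher transcript levels. LAMP2 was at 944.3 and 1014 with the GFP ORF and 1337 and 1486 with the STING ORF (0.53 ± 0.08, limma adjusted p = 2.14e-05) and LAMP1 at 5982 and 5823 with the GFP ORF and 8051 and 7828 with the STING ORF (0.43 ± 0.05, limma adjusted p = 8.81e-07). CTSA was at 911.1 and 972.2 with the GFP ORF and 1194 and 1107 with the STING ORF (0.29 ± 0.08, limma adjusted p = 0.00968) and GUSB at 506.6 and 479.0 with the GFP ORF and 602.9 and 582.3 with the STING ORF (0.27 ± 0.09, limma adjusted p = 0.0366, 0.0563 with TMM normalization). TFEB fell most, at 65.4 and 77.3 with the GFP ORF and 37.9 and 24.5 with the STING ORF (-1.19 ± 0.22, limma adjusted p = 0.000272, 0.0639 with no filter). NEU1 was at 316.5 and 313.1 with the GFP ORF and 222.6 and 219.7 with the STING ORF (-0.51 ± 0.11, limma adjusted p = 0.00153) and NAGLU at 235.4 and 203.7 with the GFP ORF and 159.7 and 153.6 with the STING ORF (-0.48 ± 0.13, limma adjusted p = 0.00685, 0.074 by DESeq2). The calls of CTSA, GUSB and NEU1 were each lost without either GFP library (limma adjusted p = 0.318 and 0.115 for CTSA, 0.245 and 0.403 for GUSB, 0.0682 and 0.0504 for NEU1), and that of NAGLU without GFP replicate 1 (0.249). Without GFP replicate 1 the counts were 2 higher and 1 lower, without GFP replicate 2 they were 2 and 2, and without STING ORF replicate 1 there were 8 lower.

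GC content and leukocyte markers moved in the ORF tables as well. The Spearman correlation of change with GC was -0.513 over all genes and -0.317 over the 33 in MDA-MB-436, and -0.322 and -0.18 in SUM159PT. After GC correction MDA-MB-436 had 4 higher and 5 lower, and SUM159PT 8 and 5. The leukocyte marker sums were 1649 to 1780 with GFP and 1567 to 1602 with STING in MDA-MB-436, and 785.6 to 816.6 and 449.2 to 490.6 in SUM159PT. GPNMB was at 1067 to 1148 in MDA-MB-436 and 411.2 to 784.5 in SUM159PT, and PTPRC at 432.7 to 645.7 and 0.87 to 5.99. Only 2 of the 8 markers were tested in MDA-MB-436, and only 1, GPNMB, in SUM159PT. In each line 1 was called lower and none higher. Their part in these results was not tested.

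Doxycycline was compared with vehicle in Py230 cells that carry the Sting1 shRNA, so doxycycline and knockdown cannot be told apart. Its target STING1 was at 841.2, 768.3 and 885.7 with vehicle and 48.3, 47.5 and 42.9 with doxycycline (-4.14 ± 0.09, limma adjusted p = 4e-22), and MYC was at 2769.9, 3281 and 3274 with vehicle and 1020.1, 964.0 and 998.0 with doxycycline (-1.64 ± 0.05, limma adjusted p = 1.41e-18). Of 33 lysosome genes, 15 were higher and 13 lower, where 32.8% and 35.1% of all genes were, with a median of 0.09 beside -0.01 over all genes. All 3 proton pump genes were higher, and each of the other role groups of 2 or more genes had members in both directions.

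CTSD was higher, at 3944, 3704 and 3682 with vehicle and 8854, 9236 and 9075 with doxycycline (1.26 ± 0.04, limma adjusted p = 4.03e-19). TFEB was at 58.6, 72.5 and 75.7 with vehicle and 136.4, 168.0 and 121.4 with doxycycline (1.03 ± 0.14, limma adjusted p = 4.43e-07), and TFE3 was lower (-0.24 ± 0.06). NPC1 was at 511.8, 562.4 and 528.6 with vehicle and 801.3, 851.2 and 858.3 with doxycycline (0.65 ± 0.06, limma adjusted p = 3.01e-10), while NPC2, which passes cholesterol to it, was at 1145, 1027 and 1081 with vehicle and 324.9, 360.4 and 366.1 with doxycycline (-1.63 ± 0.06, limma adjusted p = 1.93e-17). The opposite changes of NPC1 and NPC2 were each larger than the spread of their libraries.

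PSAP was at 2847, 2719 and 2722 with vehicle and 4134, 4308 and 4051 with doxycycline (0.59 ± 0.04, limma adjusted p = 3e-12). LAMP1, LAMP2 and ATP6AP1 rose by 0.45 ± 0.04, 0.33 ± 0.04 and 0.48 ± 0.05. Among enzymes that fell, NAGLU was at 470.2, 451.3 and 430.6 with vehicle and 173.3, 160.3 and 144.3 with doxycycline (-1.50 ± 0.08, limma adjusted p = 3.41e-14), GLA at 421.1, 407.5 and 426.3 with vehicle and 171.4, 178.0 and 178.0 with doxycycline (-1.25 ± 0.07, limma adjusted p = 2.09e-13), and GAA at 1332, 1252 and 1297 with vehicle and 632.7, 667.7 and 699.4 with doxycycline (-0.96 ± 0.05, limma adjusted p = 3.26e-14). SGSH, the other heparan sulfate enzyme, rose (0.58 ± 0.06), and ASAH1 fell (-0.83 ± 0.05). The other proton pump subunits were higher for 10 of 13 and lower for 2 (32.8% and 35.1% of all genes). At a change of at least 1.5-fold, 4 lysosome genes were higher and 5 lower. Leukocyte marker sums overlapped (807.9 to 844.5 with vehicle, 728.5 to 818.4 with doxycycline), and PTPRC was at 0 to 2.13. Of 5 leukocyte markers tested, 2 were lower and none higher. Summed mesenchymal markers were 43423 to 44902 with vehicle and 59241 to 69093 with doxycycline, with 3 of 5 called higher. Of 4 epithelial markers tested, 3 were lower and 1 higher, and all 3 hormone and HER2 receptor genes were lower. Their part in these results was not tested.

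Across the 10 comparisons, LAMP2 was called higher in 9 and lower in none, ARSB higher in 7 and lower in none, and TFEB higher in 6 and lower in 2. SQSTM1 was called in 8, higher in 4 and lower in 4. CTSD was higher in 4 and lower in 4. Calls kept under every alternative other than a 1.5-fold threshold were 6 of 9 for LAMP2, 7 of 7 for ARSB, 3 of 6 higher and 0 of 2 lower for TFEB, 1 of 4 higher and 3 of 4 lower for SQSTM1, and 4 of 4 higher and 2 of 4 lower for CTSD. GUSB, TFE3 and ATP6V1H were called least often, in 3 comparisons each. HEXA, PSAP, ATP6V0D1 and ATP6V1H were also never called lower (higher in 4, 5, 5 and 3), and TFE3 was never called higher. Of all genes, 21.1% to 69.5% were called in a comparison. The share of all genes called as often in 1 direction was not counted. These counts mix comparisons that differ in design and in the number of genes called, and they were not tested.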

How the data were processed

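Gene-level RNA-seq values of 55 libraries came in 10 tables. Their unit is signal: the authors' deposited values are gene counts scaled by a library factor within each table. The tools named by the submitters' processing notes, all without versions, are HISAT2 (alignment), featureCounts, StringTie and DESeq2, and the build is not given in those sources. Since 100% of values were whole multiples of a step per library (tolerance 0.05), reads could be recovered.

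Samples were grouped by line and label (0 unmapped columns), with a separate fit for each table. limma-trend (limma 3.58.1, R 4.3.3) was run, two-sided, on log2(value + 1) for genes whose table mean reached 10, and p-values were Benjamini-Hochberg adjusted over all genes tested, with calls below 0.05. The pseudocount of 1 understates changes of low genes. If a table had 2 perturbed groups, the average of both was set against the control. Since nothing states separate cultures, p-values cover only the spread among these libraries, which may be technical. The script was tested on simulated data.

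The lysosome genes and other lists were chosen with earlier results of these data known. Values of every library are given for up to 4 called genes per direction with the largest change whose groups do not overlap, and for further genes chosen after their values were seen (such as CTSD, NPC2, PSAP, TFEB and GLA under MYC siRNA). Some genes named from the other lists (such as CTSC, M6PR and GALNS) were also chosen with values known. As alternatives, the pseudocount was raised to 4, the filter dropped, values quantile or TMM normalized, recovered reads tested by edgeR 4.0.16 and DESeq2 1.42.0, replicate numbers used as a block, a 1.5-fold minimum set, each reagent fitted alone and each library left out. Correction for transcript GC content (loess span 0.3) and counting the 2 MDA-MB-436 Tax-R libraries as 1 were added after seeing the data. Promoter windows are from RefSeq, GRCh38.p14.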

Additional observations from a re-analysis of the deposited data

Results flagged for a closer look

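Between cell lines, 5 changes were called in opposite directions with every perturbed library on the stated side of its controls, and the difference between lines was not tested. CTSB changed by -0.16 in MDA-MB-436 and 0.28 in SUM159PT in Tax-R against parental cells, a difference of -0.44. SCARB2 changed by -0.75 in SUM159PT and 0.21 in 4T1 with MYC siRNA, a difference of -0.96, and the 4T1 call was lost with siMYC2 alone. With STING sgRNA, LAMP1 changed by -1.04 in MDA-MB-436 and 0.53 in SUM159PT (difference -1.57), TFEB by -0.59 and 0.72 (difference -1.31), and CTSB by 0.36 and -0.42 (difference 0.79). The TFEB call in MDA-MB-436 was lost after quantile normalization, by DESeq2, after GC correction, with C2 alone (limma adjusted p = 0.105) and without either mock library.

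Between the groups C1 and C2 of STING sgRNA cells, limma called a difference (adjusted p below 0.05 over all genes) for 1 gene in MDA-MB-436 and 9 in SUM159PT. In MDA-MB-436, CTSD changed by -0.55 against mock in C1 and by -0.93 in C2, a difference of -0.37. In SUM159PT, CTSD changed by 0.36 in C1 and -0.29 in C2, a difference of -0.65, and CTSZ by 0.12 and -0.12, a difference of -0.24. CD63 changed by 0.01 and -0.30 (difference -0.31), SGSH by -0.01 and -0.27 (difference -0.26), and GAA by -0.14 and -0.37 (difference -0.23). PSAP changed by 0.05 and -0.10 (difference -0.15) and SQSTM1 by 0.02 and -0.11 (difference -0.13). LAMP2 rose in both groups, by 0.17 and 0.33 (difference 0.16), as did SCARB2, by 0.22 and 0.37 (difference 0.15).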

How the results depend on the processing

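Under every alternative other than a 1.5-fold threshold, calls were kept for 9 of 19 and 5 of 11 lysosome genes in Tax-R cells of MDA-MB-436 and SUM159PT, 29 of 30, 29 of 30 and 19 of 23 with MYC siRNA in MDA-MB-436, SUM159PT and 4T1, 9 of 22 and 7 of 16 with STING sgRNA, 2 of 8 and 2 of 9 with the STING ORF, and 27 of 28 in Py230. Signs changed for CTSZ, GAA, ATP6AP1 and SQSTM1 with STING sgRNA in MDA-MB-436 after GC correction, where CTSZ and SQSTM1 were called higher. The sign of CD63 changed in SUM159PT with C1 alone. The counts of lysosome genes that moved by over 1.5 times were these, and the cause was not tested unless the alternative is stricter by construction. Against parental cells, MDA-MB-436 had 5 higher by DESeq2, and 2 higher and 1 lower at 1.5-fold. In Tax-R cells of SUM159PT, 5 were lower after quantile normalization, 5 higher and 0 lower by DESeq2, 1 higher and 0 lower at 1.5-fold, and 3 lower after GC correction. With MYC siRNA, 1 was lower in MDA-MB-436 at 1.5-fold, 5 lower in SUM159PT after GC correction, and in 4T1 2 lower after quantile normalization, 1 lower by edgeR and 5 higher at 1.5-fold. Genes that differed between the MYC siRNAs in MDA-MB-436 were 2 by edgeR and 1 with the replicate block. With STING sgRNA in MDA-MB-436, 5 were higher by DESeq2, 0 higher and 6 lower at 1.5-fold, 5 higher with C2 alone, 5 lower after GC correction, and 0 differed between C1 and C2 with no filter. With STING sgRNA in SUM159PT, 3 were lower with no filter, 5 lower by DESeq2, 1 higher and 1 lower at 1.5-fold, 4 lower with C1 alone, 13 higher and 4 lower after GC correction, and 0 differed between C1 and C2 with no filter. With the STING ORF in MDA-MB-436, 0 were higher and 2 lower with no filter, 4 lower by DESeq2, 2 higher with the replicate block, 0 higher and 1 lower at 1.5-fold, and 4 higher after GC correction. With the STING ORF in SUM159PT, 2 were higher and 1 lower with no filter, 3 higher after quantile normalization, 0 higher and 1 lower at 1.5-fold, and 8 higher after GC correction. In Py230, 4 were higher and 5 lower at 1.5-fold.

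Leaving out 1 library at a time gave 8 to 10 higher and 5 to 8 lower in Tax-R cells of MDA-MB-436, and 9 to 10 and 1 to 3 in SUM159PT. With MYC siRNA it gave 25 to 26 and 4 to 4 in MDA-MB-436, 27 to 27 and 3 to 4 in SUM159PT, and 21 to 24 and 0 to 1 in 4T1. With STING sgRNA it gave 6 to 9 and 9 to 13 in MDA-MB-436, and 7 to 8 and 5 to 8 in SUM159PT. With the STING ORF it gave 1 to 1 and 3 to 7 in MDA-MB-436, and 2 to 6 and 1 to 8 in SUM159PT. In Py230 it gave 15 to 16 and 12 to 13. Genes that differed between C1 and C2 were 0 to 2 in MDA-MB-436 and 3 to 9 in SUM159PT. Deviations of same-numbered libraries correlated at -0.0913 to 0.11, highest with the ORF in SUM159PT, and the numbers were not taken as pairs. The replicate block moved no other count of lysosome genes by over 1.5 times. Over all genes with the ORF, it raised calls from 1366 higher and 1768 lower to 1962 and 2438 in MDA-MB-436. In SUM159PT it raised them from 1964 and 1911 to 2707 and 2518. With 2 or 3 libraries a group and depths of 5663610 to 13191675 reads, small changes of low genes were not detectable.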
